A study of Homo sapiens with 9 samples.

Results

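Expression of the proteasome genes in THP-1, a monocyte-like line from a human acute leukaemia, is described here across 9 RNA-seq libraries. The genes were taken by name: a gene counted as a member where its symbol was PSM, then 1 letter from A to G, then a number. This found 47 of the 30000 rows of the count table, of which 46 had enough reads to be tested. PSMB11, the catalytic subunit made in thymic epithelium, had 0 to 2 reads per library and was not tested. The members were 7 subunits of the alpha ring and 7 constitutive subunits of the beta ring of the core particle, 6 ATPases and 11 other subunits of the regulatory particle, and 5 immunoproteasome genes (PSMB8, PSMB9, PSMB10, PSME1 and PSME2), which are set apart throughout. The remaining members were 3 chaperones that help to assemble the regulatory particle, 4 that help to assemble the core particle, and PSME3, PSME4 and PSMF1, which are other activators and an inhibitor.

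The study compared 3 groups of 3 libraries, all from THP-1 cells. Cells of the first group received ectosomes labelled PKM2_KD, read here as ectosomes from Huh7 hepatoma cells whose pyruvate kinase isoform PKM2 had been knocked down by shRNA. Cells of the second group received ectosomes labelled Scramble, the control shRNA, and cells of the third group, labelled Ctrl, have no ectosomes among their labels. Ectosomes are shed by outward budding of the cell surface membrane. Their dose, the incubation time and the number of Huh7 clones are not stated in the labels. Whether the numbered replicates were separate cultures is not stated either, so p-values here reflect the spread from library to library, part or all of which may be technical.

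The proteasome is the protease that degrades proteins tagged with ubiquitin. Its barrel-shaped core holds catalytic beta subunits between outer rings of alpha subunits, and the regulatory particle at its end binds, unfolds and feeds in the substrate. Interferons induce a variant, the immunoproteasome, in which PSMB8, PSMB9 and PSMB10 replace the constitutive catalytic subunits PSMB5, PSMB6 and PSMB7, and whose peptides serve antigen presentation on MHC class I. Monocytes and macrophages express both forms.

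Totals ran from 17744587 to 23864381 counts per library, and levels are given as TMM-scaled CPM, the share of a library's counts after scaling. Control replicate 3 stood apart from the other control libraries. Over all genes the counts of that library differed from control replicates 1 and 2 by a chi-square of 46.4 and 43.6 per degree of freedom, against 4.999 between replicates 1 and 2 and 2.53 to 7.01 within the other groups. For the members the median log2 difference of control replicate 3 from the mean of the other control libraries was 0.10, and single members ran from -0.56 (PSMD9) to 0.35 (PSMA1). All 10 monocyte markers looked for had reads, with a summed level of 1983 to 2246 CPM in cells given PKM2-KD ectosomes, 1360.5 to 1476 CPM with scramble ectosomes and 904 to 1149 CPM in control cells. The markers did not move as one: 6 were higher and 1 lower with PKM2-KD ectosomes than in control, and 4 were higher and 3 lower with scramble ectosomes than in control. The largest rises with PKM2-KD ectosomes against control were those of CD14, CSF1R and TYROBP (4.23, 3.31 and 2.08 on the log2 scale). The 1 that was lower there was LYZ, which averaged 39.9 ± 6.51 CPM with PKM2-KD ectosomes, 17.6 ± 0.529 CPM with scramble ectosomes and 203 ± 120.4 CPM in control cells (SD, n = 3 each). In control replicates 1, 2 and 3 LYZ had 136, 131 and 342 CPM. Among the 10 markers CD68 was at or near 0 in every library, at most 0.785 CPM, and 81.7% of its exonic bases lie in other genes of the same strand too. Of 16 hepatocyte transcripts, 5 were tested, and their list summed to 46.2 to 52.6 CPM with PKM2-KD ectosomes, 9.16 to 10.2 CPM with scramble ectosomes and 17.3 to 20.9 CPM in control cells, with ALB at 0.524 CPM or less. SERPINA1, which monocytes also express, made up most of the sum with PKM2-KD ectosomes, and GPC3 most of it in control cells. Against control, SERPINA1 and APOA2 were higher with PKM2-KD ectosomes (4.15 and 1.43 on the log2 scale) and GPC3 (-1.49) and APOA1, which had few reads, were lower. The part of these marker levels in the proteasome results was not tested. PKM itself had 2181, 2304 and 2454 CPM with PKM2-KD ectosomes, 3376, 3573 and 3553 CPM with scramble ectosomes and 789, 734 and 428 CPM in control cells. The knockdown was made in the Huh7 cells, so these values do not check the labels.

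Scramble ectosomes went with higher levels of most core and regulatory particle genes and with lower levels of the 3 immunoproteasome catalytic subunits. With PKM2-KD ectosomes most constitutive genes did not pass the test against control. With scramble ectosomes 26 of the 46 tested members rose and 7 fell against control (edgeR quasi-likelihood test, adjusted p under 0.05 over all genes), with a median log2 fold change of 0.25. The same test called 34.6% of all 18437 genes tested higher and 33.2% lower, and 41.3% higher and 33.3% lower among genes with a mean of at least 10 CPM, where the median log2 fold change was 0.08. With PKM2-KD ectosomes 3 members were higher and 24 lower than with scramble ectosomes, with a median of -0.24. The background for that comparison was 31.4% higher and 30.3% lower over all genes, and 28.6% higher and 40.6% lower at 10 CPM or more, with a median of -0.13. Between PKM2-KD ectosomes and control 9 members were higher and 8 lower, against 27% higher and 26.7% lower over all genes and 28.8% higher and 35.3% lower at 10 CPM or more. These comparisons share libraries, so their counts are not independent of each other.

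Of the 31 constitutive subunits of the core and regulatory particles, 23 rose and 1 fell with scramble ectosomes against control, the median log2 fold change being 0.35. With PKM2-KD ectosomes 1 was higher and 19 were lower than with scramble ectosomes, with a median of -0.41, and 5 were higher and 2 lower than control, with a median of 0.06. Over all genes the shares were 34.6% higher and 33.2% lower, 31.4% and 30.3%, and 27% and 26.7%. The summed level of the 31 subunits was 3273, 3335 and 3640.5 CPM in the PKM2-KD libraries, 4279.7, 4398 and 4467 CPM in the scramble libraries and 3492, 3294 and 3372 CPM in the control libraries. All 3 scramble libraries lay above the other 6, which overlapped. The 5 immunoproteasome genes summed to 541, 587 and 614 CPM with PKM2-KD ectosomes, 417, 487 and 507 CPM with scramble ectosomes and 538, 476 and 571 CPM in control cells, so here the scramble libraries were the lower ones, though they overlapped with control. In bulk RNA, fewer cells of a type and less RNA per cell cannot be told apart.

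These counts depend on how libraries are scaled. With library totals alone all tested genes had a median log2 difference of -0.21 for scramble ectosomes against control and of 0.20 for PKM2-KD against scramble ectosomes, against -0.01 and 0.03 with TMM, and the share of higher calls among all calls goes to 40.2% and to 61.95%, against 51.05% and 50.88% with TMM. Under that scaling 15 members were higher and 9 lower with scramble ectosomes than in control, and 15 and 2 of the 31 constitutive subunits, beside 27.8% higher and 41.4% lower over all genes. For PKM2-KD against scramble ectosomes it gave 10 members higher and 21 lower, and 2 and 16 of the constitutive subunits, beside 38.2% and 23.5% over all genes. Without control replicate 3, 28 members were higher and 7 lower with scramble ectosomes than in control, 6 were higher and 27 lower with PKM2-KD than with scramble ectosomes, and 13 were higher and 13 lower with PKM2-KD ectosomes than in control. The shares over all genes there were 36.9% higher and 34.7% lower, 36.1% higher and 35.4% lower, and 29.1% higher and 28.6% lower, so the last counts of members, of 46 tested, lie at the background.

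**Figure D1:**
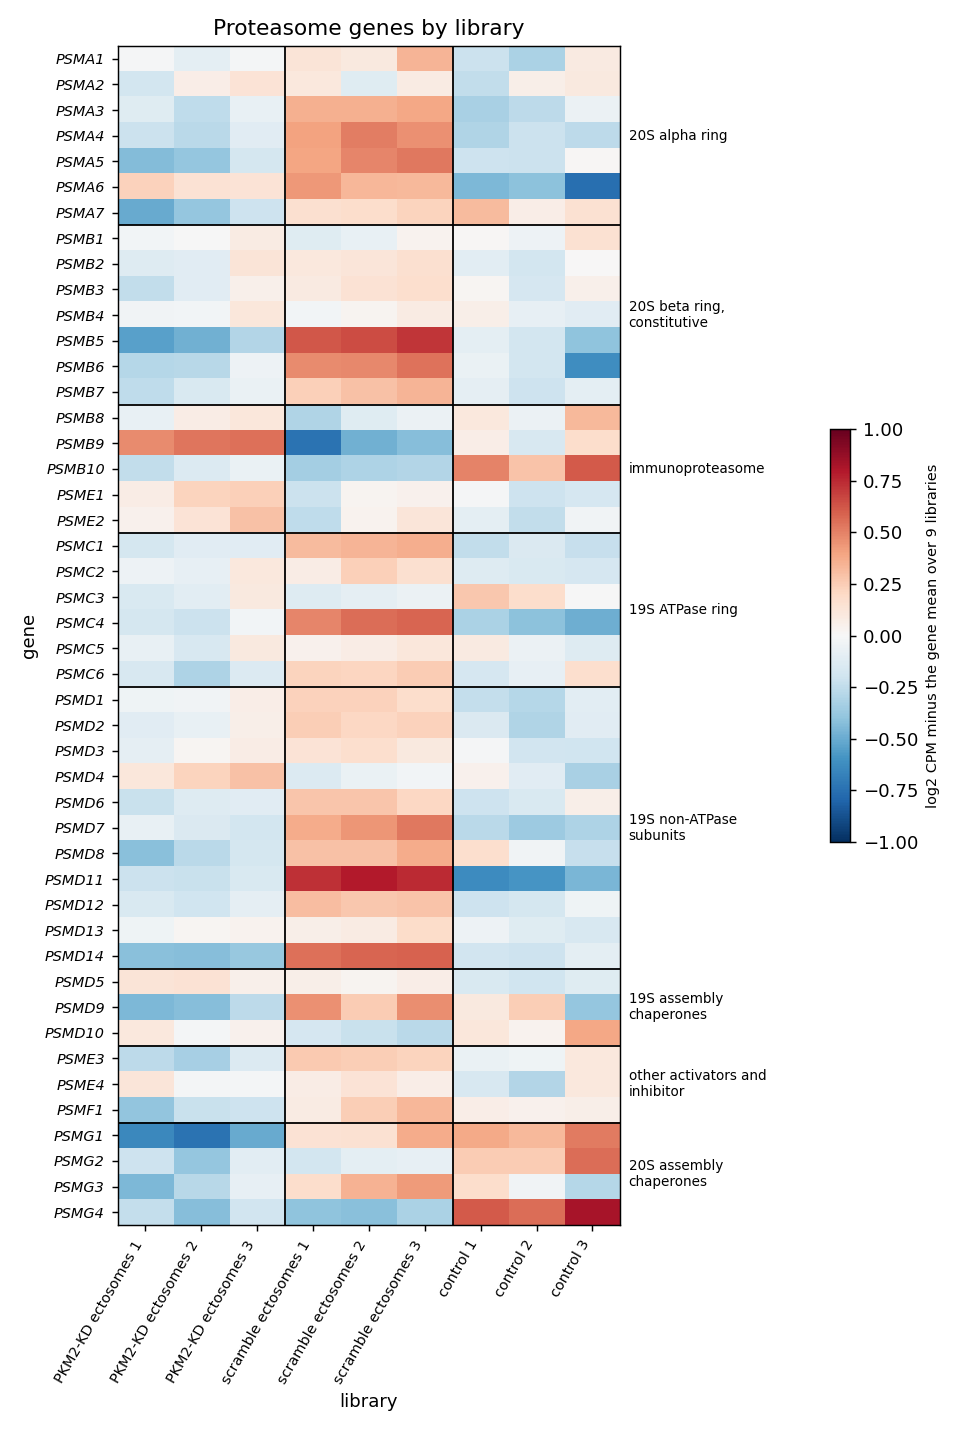
Levels of the 46 tested members in each library, drawn as log2 CPM minus the gene's mean over the 9 libraries, with genes in rows grouped by role and libraries in columns. The scramble columns are red for most core and regulatory particle genes, where the constitutive subunits sum to 4279.7, 4398 and 4467 CPM, and blue for PSMB9 and PSMB10.

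The alpha ring gates the entry to the core, and 5 of its 7 genes rose with scramble ectosomes against control while none fell. Over all genes 34.6% rose and 33.2% fell, and 41.3% and 33.3% among those with at least 10 CPM. PSMA5 had 119, 123 and 142 CPM with PKM2-KD ectosomes, 211, 225 and 231 CPM with scramble ectosomes and 139.6, 139 and 162 CPM in control cells. The scramble libraries lay apart at the top, and the others overlapped. PSMA5 was 1.52-fold higher with scramble ectosomes than in control (log2 fold change 0.60 ± 0.09, adjusted p = 0.000205; here and below ± after a log2 fold change is its SE) and 1.74-fold lower with PKM2-KD than with scramble ectosomes (log2 fold change -0.80 ± 0.09, adjusted p = 3.55e-05). PSMA3 and PSMA4 did likewise, with log2 fold changes of 0.57 and 0.72 for scramble ectosomes against control and -0.52 and -0.66 for PKM2-KD against scramble ectosomes. PSMA6 had 16.5, 15.5 and 15.5 CPM with PKM2-KD ectosomes, 18.96, 17.7 and 17.5 CPM with scramble ectosomes and 10.3, 10.6 and 8.34 CPM in control cells. Both groups given ectosomes lay above every control library. PSMA6 rose with scramble ectosomes against control (log2 fold change 0.89 ± 0.11, adjusted p = 4.42e-05) and with PKM2-KD ectosomes against control (log2 fold change 0.70 ± 0.11, adjusted p = 0.000442), and the comparison of the ectosomes did not pass (log2 fold change -0.19 ± 0.11, adjusted p = 0.157).

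PSMA7 took another course. It had 133, 145 and 164 CPM with PKM2-KD ectosomes, 211, 214 and 220.4 CPM with scramble ectosomes and 235, 198 and 211 CPM in control cells. Scramble and control libraries overlapped, and the PKM2-KD libraries lay below both. PSMA7 was 1.46-fold lower with PKM2-KD ectosomes than in control (log2 fold change -0.54 ± 0.10, adjusted p = 0.000711) and did not pass for scramble ectosomes against control (log2 fold change 0.00 ± 0.09, adjusted p = 0.976). PSMA2 had 5.45, 6.47 and 6.82 CPM with PKM2-KD ectosomes, 6.68, 5.69 and 6.57 CPM with scramble ectosomes and 5.22, 6.46 and 6.62 CPM in control cells, and passed in no comparison. Per kilobase of exon, PSMA7 stood highest of the ring in control cells, at 123 ± 10.9 CPM (SD, n = 3), and PSMA6 and PSMA2 lowest, at 1.496 ± 0.188 and 1.14 ± 0.144 CPM. In GENCODE release 29, 34.6% of the exonic bases of PSMA2 and 14.1% of those of PSMA6 lie in other genes too, and the part of this in their levels was not tested. PSMA1 rose with scramble ectosomes against control (log2 fold change 0.33 ± 0.11, adjusted p = 0.0203), but its adjusted p ran from 4.14e-05 to 0.260 over the alternatives.

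Among the constitutive beta subunits the catalytic members moved most. PSMB5, the chymotrypsin-like protease, had 82.01, 85.8 and 97.6 CPM with PKM2-KD ectosomes, 183, 187 and 196 CPM with scramble ectosomes and 112, 105 and 90.5 CPM in control cells. The scramble libraries lay far above the rest, and the PKM2-KD and control libraries overlapped. The gene lies on the minus strand at chr14:23016543-23035230 (GRCh38). PSMB5 rose 1.84-fold with scramble ectosomes against control (log2 fold change 0.88 ± 0.10, adjusted p = 1.33e-05), was 2.14-fold lower with PKM2-KD than with scramble ectosomes (log2 fold change -1.09 ± 0.10, adjusted p = 4.52e-06), and did not pass for PKM2-KD ectosomes against control (log2 fold change -0.21 ± 0.10, adjusted p = 0.0879). Without control replicate 3 that last difference passed, at a log2 fold change of -0.30 and an adjusted p of 0.0015.

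PSMB6, the caspase-like protease, had 60.2, 60.6 and 70.6 CPM with PKM2-KD ectosomes, 101, 102 and 106 CPM with scramble ectosomes and 69.8, 64.4 and 47.6 CPM in control cells. Control replicate 3 was the lowest library, and scramble libraries lay above all others. PSMB6 rose with scramble ectosomes against control (log2 fold change 0.77 ± 0.13, adjusted p = 0.000297) and was lower with PKM2-KD than with scramble ectosomes (log2 fold change -0.70 ± 0.13, adjusted p = 0.000738). PSMB7, the trypsin-like protease, had 89.9, 96.6 and 102 CPM with PKM2-KD ectosomes, 126, 131 and 136 CPM with scramble ectosomes and 101, 93.1 and 100.1 CPM in control cells, with the scramble libraries again apart. Its log2 fold changes were 0.42 ± 0.08 for scramble ectosomes against control and -0.45 ± 0.08 for PKM2-KD against scramble ectosomes, with adjusted p of 0.000517 and 0.000443. The non-catalytic members moved less. PSMB1 had 152, 154 and 164 CPM with PKM2-KD ectosomes, 142, 147 and 158 CPM with scramble ectosomes and 156, 149 and 172 CPM in control cells, all overlapping, and passed in no comparison. PSMB4 did not pass either, with a log2 fold change of 0.07 ± 0.08 for scramble ectosomes against control, and was the highest member per kilobase of exon in control cells, at 127 ± 7.87 CPM (SD, n = 3). PSMB2 rose with scramble ectosomes (log2 fold change 0.22 ± 0.09, adjusted p = 0.04) and PSMB3 was lower with PKM2-KD than with scramble ectosomes (log2 fold change -0.24 ± 0.09, adjusted p = 0.0447). Both calls were weak: over the alternatives the adjusted p reached 0.825 for PSMB2 and 0.516 for PSMB3.

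The ATPases form the ring that unfolds substrates, and 4 of 6 rose with scramble ectosomes against control while 1 fell. Over all genes 34.6% rose and 33.2% fell. PSMC4 had 72.5, 70.6 and 80.1 CPM with PKM2-KD ectosomes, 115, 121 and 122 CPM with scramble ectosomes and 65.8, 61.5 and 58.5 CPM in control cells. The 3 groups did not overlap, with control the lowest. PSMC4 rose 1.93-fold with scramble ectosomes against control (log2 fold change 0.95 ± 0.08, adjusted p = 1.66e-06), was lower with PKM2-KD than with scramble ectosomes (log2 fold change -0.68 ± 0.08, adjusted p = 2.90e-05) and was higher with PKM2-KD ectosomes than in control (log2 fold change 0.26 ± 0.08, adjusted p = 0.0156). Without PKM2-KD replicate 3 that last adjusted p was 0.0628. PSMC1, PSMC2 and PSMC6 rose with scramble ectosomes by 0.54, 0.31 and 0.25 on the log2 scale. The rise of PSMC2 was lost with library totals as the scaling (log2 fold change 0.10, adjusted p = 0.247). For PSMC6 the adjusted p ran from 0.000105 to 0.632 over the alternatives. PSMC1 has 75.8% of its exonic bases in common with NRDE2 on the other strand, so reads of the pair cannot be told apart if they were counted without strand, and the strand setting is not stated in the sources used here.

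PSMC3 had 129, 133 and 153 CPM with PKM2-KD ectosomes, 131, 135 and 137 CPM with scramble ectosomes and 173, 161 and 143 CPM in control cells. It was the ATPase that fell with scramble ectosomes (log2 fold change -0.24 ± 0.09, adjusted p = 0.0385), with every control library above every scramble library and the PKM2-KD libraries overlapping with both. That call was lost when any of several single libraries was left out and in the fit with the replicate number as a block, with an adjusted p of up to 0.129. PSMC5 passed in no comparison, with a log2 fold change of 0.10 ± 0.09 for scramble ectosomes against control.

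Of the 11 regulatory particle subunits that are not ATPases, 10 rose with scramble ectosomes against control and none fell, the highest share of the classes. Over all genes 34.6% rose and 33.2% fell. PSMD11, a scaffold subunit of the lid, had 87.8, 87.3 and 91.9 CPM with PKM2-KD ectosomes, 169, 177 and 171 CPM with scramble ectosomes and 65.95, 67.8 and 74.3 CPM in control cells. The groups did not overlap, and the scramble libraries lay far above both others. Its rise of 2.48-fold with scramble ectosomes against control was the largest of the 46 members (log2 fold change 1.31 ± 0.07, adjusted p = 7.83e-08). It was 1.94-fold lower with PKM2-KD than with scramble ectosomes (log2 fold change -0.95 ± 0.07, adjusted p = 1.47e-06) and 1.28-fold higher with PKM2-KD ectosomes than in control (log2 fold change 0.36 ± 0.07, adjusted p = 0.00165). The gene lies on the plus strand at chr17:32444261-32483318 (GRCh38).

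PSMD14, the deubiquitinase that strips ubiquitin chains from arriving substrates, had 69.7, 69.3 and 71.7 CPM with PKM2-KD ectosomes, 136, 139.6 and 141 CPM with scramble ectosomes and 81.6, 80.8 and 86.9 CPM in control cells. Here the PKM2-KD libraries were the lowest, below every control library. PSMD14 rose 1.67-fold with scramble ectosomes against control (log2 fold change 0.74 ± 0.07, adjusted p = 2.66e-06), was 1.98-fold lower with PKM2-KD than with scramble ectosomes (log2 fold change -0.98 ± 0.07, adjusted p = 6.72e-07) and lower with PKM2-KD ectosomes than in control (log2 fold change -0.24 ± 0.07, adjusted p = 0.00985). Without PKM2-KD replicate 2 that last adjusted p was 0.0544. PSMD7, the structural partner of PSMD14, had log2 fold changes of 0.76 ± 0.07 for scramble ectosomes against control and -0.58 ± 0.07 for PKM2-KD against scramble ectosomes, with adjusted p of 4.68e-06 and 5.07e-05. PSMD12, another lid subunit, rose by 0.42 with scramble ectosomes against control and was lower, at -0.43, with PKM2-KD than with scramble ectosomes. The base scaffold subunits PSMD1 and PSMD2 rose by 0.42 and 0.42 on the log2 scale with scramble ectosomes.

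PSMD4, a ubiquitin receptor, had 243, 262 and 274 CPM with PKM2-KD ectosomes, 204, 215 and 220.1 CPM with scramble ectosomes and 231, 208 and 179 CPM in control cells. Scramble and control libraries overlapped, and all 3 PKM2-KD libraries lay above them. PSMD4 was the only constitutive subunit that was higher with PKM2-KD than with scramble ectosomes (log2 fold change 0.29 ± 0.10, adjusted p = 0.0259), and it was higher than in control (log2 fold change 0.33 ± 0.10, adjusted p = 0.0145). Leaving out single libraries took the adjusted p of that comparison of ectosomes to 0.1002 at most. The rises of PSMD3 and PSMD13 with scramble ectosomes, 0.27 and 0.22 on the log2 scale, were lost with library totals as the scaling, as were those of PSMD6 and PSMD8.

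**Figure D2:**
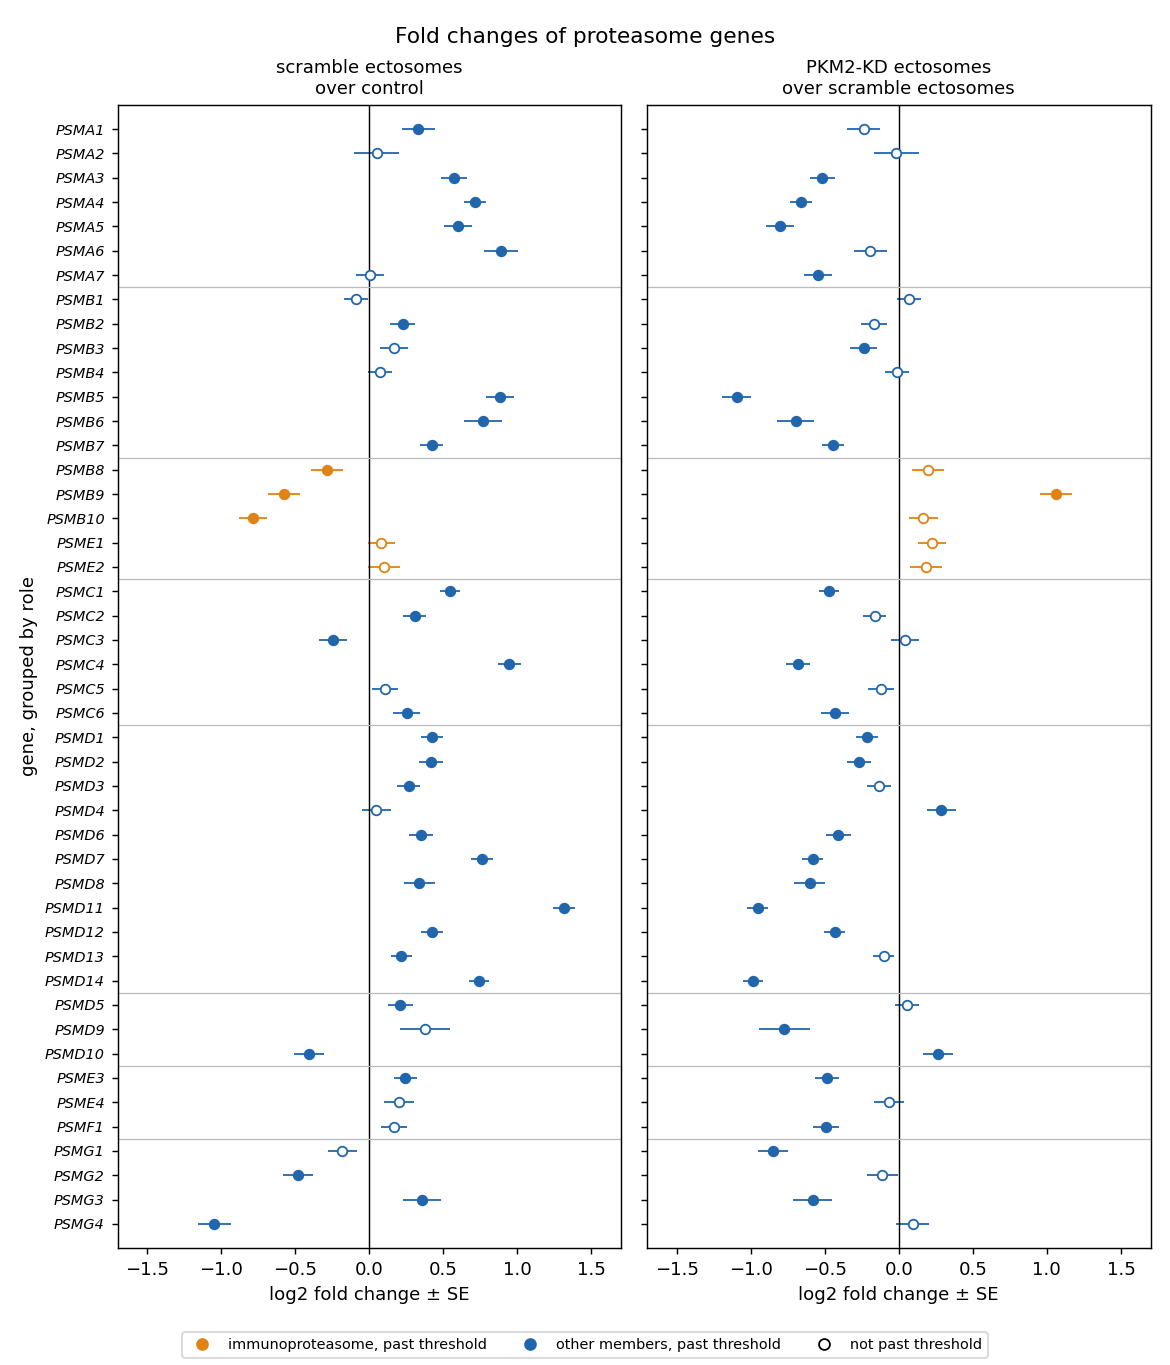
Log2 fold changes with SE of the 46 tested members, with genes down the page by role, for scramble ectosomes over control on the left and PKM2-KD over scramble ectosomes on the right; filled points passed an adjusted p of 0.05. Most constitutive genes lie right of 0 on the left panel and left of 0 on the right panel, PSMD11 at 1.31 and -0.95, while PSMB9 lies at -0.58 and 1.06.

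Many proteasome genes are known targets of the transcription factors NFE2L1 and NFE2L2, which bind the antioxidant response element. Its core, TGACNNNGC on either strand, was looked for in the RefSeq promoters of GRCh38.p14, from 250 bases before to 50 bases after the start. It was in 13.3% of the 35116 promoters of all genes and in 15 of the 50 promoters (30%) of the 41 members that had a promoter there. The other members had none and were not searched for this or the other motifs. Among the 32 promoters of the 26 constitutive subunits searched, the core was in 7, those of PSMA4, PSMB3, PSMC4, PSMC5, PSMD1, PSMD3 and PSMD12. It was also in 3 of the 6 promoters of immunoproteasome genes, those of PSMB9, PSME1 and PSME2, none of which rose with scramble ectosomes. Among constitutive subunits with a match, PSMA4, PSMC4, PSMD1, PSMD3 and PSMD12 rose with scramble ectosomes against control, and PSMB3 and PSMC5 did not pass. Of all 31 constitutive subunits, searched or not, 23 rose (74.2%), so the rises among those with a match lie near that share. A match is a run of letters and not a measured site, and its part in the levels was not tested. The windows below show 3 matches on the strand of the gene, with the core in capitals and 10 bases on either side, for subunits that rose with scramble ectosomes. They begin 126 bases before the start of PSMA4 (chr15:78540650-78540678, plus strand), 37 bases before that of PSMD3 (chr17:39980760-39980788, plus strand) and 165 bases before that of PSMD12 (chr17:67366724-67366752, minus strand).
PSMA4: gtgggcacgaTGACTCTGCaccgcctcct
PSMD3: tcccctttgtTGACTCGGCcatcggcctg
PSMD12: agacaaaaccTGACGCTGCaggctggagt

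Of the 5 immunoproteasome genes, 3 fell and none rose with scramble ectosomes against control, and their median log2 fold change was -0.29. With PKM2-KD ectosomes 1 was higher than with scramble ectosomes and none was lower, with a median of 0.20, and 3 were higher and 1 was lower than in control, with a median of 0.29. Over all genes 34.6% rose and 33.2% fell with scramble ectosomes against control. The shares were 31.4% and 30.3% for PKM2-KD against scramble ectosomes, and 27% and 26.7% for PKM2-KD ectosomes against control. The count of immunoproteasome genes higher with PKM2-KD than with scramble ectosomes depended on the fit. It was 4 without control replicate 3, where 36.1% of all genes were higher. It was 5 with library totals as the scaling, beside 38.2% of all genes. It was also 5 with only those 2 groups in the fit, beside 6646 of 17676 genes.

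PSMB9 replaces PSMB6 in the immunoproteasome. It had 87.9, 91.6 and 92.5 CPM with PKM2-KD ectosomes, 37.8, 45.3 and 47.1 CPM with scramble ectosomes and 66.00, 56.7 and 71.4 CPM in control cells. The groups did not overlap: scramble libraries were the lowest and PKM2-KD libraries the highest. PSMB9 fell 1.49-fold with scramble ectosomes against control (log2 fold change -0.58 ± 0.11, adjusted p = 0.000606), was 2.09-fold higher with PKM2-KD than with scramble ectosomes (log2 fold change 1.06 ± 0.11, adjusted p = 1.01e-05) and 1.402-fold higher with PKM2-KD ectosomes than in control (log2 fold change 0.49 ± 0.10, adjusted p = 0.0025). It was the only member that was lower with scramble ectosomes and higher with PKM2-KD ectosomes than in control. Its 3 calls passed under every alternative run, with adjusted p of 0.0107 at most.

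PSMB8, which replaces PSMB5, had 149.8, 166 and 171 CPM with PKM2-KD ectosomes, 128, 145 and 152 CPM with scramble ectosomes and 169.6, 152 and 198 CPM in control cells. The highest scramble library came close to the lowest control library without passing it, and the PKM2-KD libraries overlapped with both. PSMB8 fell with scramble ectosomes against control (log2 fold change -0.29 ± 0.11, adjusted p = 0.0352), and leaving out single libraries took that adjusted p to 0.154 at most. For PKM2-KD against scramble ectosomes it did not pass (log2 fold change 0.20 ± 0.11, adjusted p = 0.137). PSMB8 and PSMB9 lie on opposite strands in the MHC region. Their GENCODE spans are chr6:32840717-32844703 on the minus strand and chr6:32844136-32859585 on the plus strand (GRCh38). Of the exonic bases of PSMB8, 20.6% lie in PSMB8-AS1 or PSMB9 too. The RefSeq start of PSMB9 used for the motif search lies further along its span, past TAP1. An antioxidant response element match within chr6:32854034-32854062 begins 148 bases before that start.

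PSMB10, which replaces PSMB7, had 30.4, 32.7 and 34.4 CPM with PKM2-KD ectosomes, 28.4, 29.1 and 29.3 CPM with scramble ectosomes and 50.8, 43.9 and 55.2 CPM in control cells. Every control library lay above every library given ectosomes. PSMB10 fell 1.72-fold with scramble ectosomes (log2 fold change -0.79 ± 0.10, adjusted p = 3.10e-05) and 1.54-fold with PKM2-KD ectosomes (log2 fold change -0.62 ± 0.10, adjusted p = 0.000301) against control, and the comparison of the ectosomes did not pass (log2 fold change 0.17 ± 0.10, adjusted p = 0.156). Of its exonic bases, 34.8% lie in AC040162.1 on the same strand too, and the part of this in its level was not tested.

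PSME1 and PSME2 form the ring-shaped activator that opens the core without ATP. PSME1 had 116, 129 and 130.1 CPM with PKM2-KD ectosomes, 94.8, 112 and 113 CPM with scramble ectosomes and 109, 95.3 and 98.3 CPM in control cells. PSME2 had 157, 167 and 186 CPM with PKM2-KD ectosomes, 127, 155 and 165 CPM with scramble ectosomes and 142, 128 and 148 CPM in control cells. The scramble and control libraries overlapped for both genes, and the PKM2-KD libraries lay above all control libraries. With PKM2-KD ectosomes PSME1 was higher than in control (log2 fold change 0.31 ± 0.09, adjusted p = 0.017), as was PSME2 (log2 fold change 0.29 ± 0.11, adjusted p = 0.0479). Both calls were weak: the adjusted p reached 0.0576 for PSME1 and 0.164 for PSME2 when single libraries were left out. Neither passed for scramble ectosomes against control (0.08 and 0.10 on the log2 scale).

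The interferon response element, searched as GAAANNGAA on either strand, was in 8.11% of all RefSeq promoters, in 8 of the 50 member promoters (16%) and in 4 of the 6 promoters of immunoproteasome genes. Those 4 were PSMB8, PSMB10, PSME1 and PSME2, and the letters were not found in the window of PSMB9. Matches outside that window, upstream of PSMB9, lie in the promoter of TAP1 and are given with TAP1 below. Among the 32 promoters of constitutive subunits the element was in 3. The gamma-activated site, searched as TTCNNNGAA, which can overlap with the other motif, was in 7.66% of all promoters and 7 of the 50 member promoters (14%). The 4 matches are shown on the strand of the gene, with the element in capitals; in PSMB8 and PSME1 it reads on the other strand. They are shown because these genes carry the same 9 letters, on 1 strand or the other, near their starts. A match is not a measured site, and its part in the levels was not tested. The windows are chr6:32844032-32844060 (PSMB8, minus strand), chr16:67936853-67936881 (PSMB10, minus strand), chr14:24136190-24136218 (PSME1, plus strand) and chr14:24146620-24146648 (PSME2, minus strand) in GRCh38.p14.
PSMB8: atctgtggctTTCGCTTTCacttcctcct
PSMB10: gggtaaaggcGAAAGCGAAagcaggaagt
PSME1: ccctaccgctTTCGCTTTCccttcgcggt
PSME2: cctggggagtGAAAGCGAAagcccgggcg

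The balance of immunoproteasome and constitutive catalytic subunits was read within each library, where scaling plays no part. The log2 ratio of PSMB8 to PSMB5 counts was 0.87, 0.96 and 0.81 with PKM2-KD ectosomes, -0.51, -0.37 and -0.37 with scramble ectosomes and 0.61, 0.53 and 1.13 in control cells. That of PSMB9 to PSMB6 was 0.54, 0.60 and 0.39 with PKM2-KD ectosomes, -1.42, -1.17 and -1.18 with scramble ectosomes and -0.08, -0.18 and 0.58 in control cells. For PSMB10 to PSMB7 it was -1.56, -1.56 and -1.57 with PKM2-KD ectosomes, -2.15, -2.17 and -2.21 with scramble ectosomes and -0.99, -1.08 and -0.86 in control cells. In all 3 pairs every scramble library lay below every other library. The ratios were 2.25-fold (PSMB8), 2.57-fold (PSMB9) and 2.30-fold (PSMB10) lower with scramble ectosomes than in control, and 2.46-fold, 3.41-fold and 1.53-fold higher with PKM2-KD than with scramble ectosomes. Each of these 6 differences had a two-sided exact permutation p of 0.10, the smallest that 3 against 3 libraries can give, and 0.129 after Benjamini-Hochberg adjustment over the 9 differences computed.

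Between PKM2-KD ectosomes and control the ratios split. PSMB8 to PSMB5 differed by 0.12 (exact permutation p = 0.50) and PSMB9 to PSMB6 by 0.40 (exact permutation p = 0.30) on the log2 scale, both within the spread of the control libraries. Control replicate 3 had the highest control ratio in each pair, and without it these differences were 0.31 and 0.64, with every PKM2-KD library above the other control libraries. PSMB10 to PSMB7 was 1.51-fold lower with PKM2-KD ectosomes than in control, in all 3 libraries. Per kilobase of exon PSMB8 and PSMB5 stood at 54.2 ± 3.71 and 50.1 ± 4.62 CPM with PKM2-KD ectosomes, 47.3 ± 4.03 and 107 ± 3.77 CPM with scramble ectosomes, and 57.7 ± 7.67 and 58.02 ± 6.12 CPM in control cells (SD, n = 3 each). PSMB5 exceeded PSMB8 per length beyond the spread with scramble ectosomes, and in the other groups the pair lay within its spread.

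**Figure D3:**
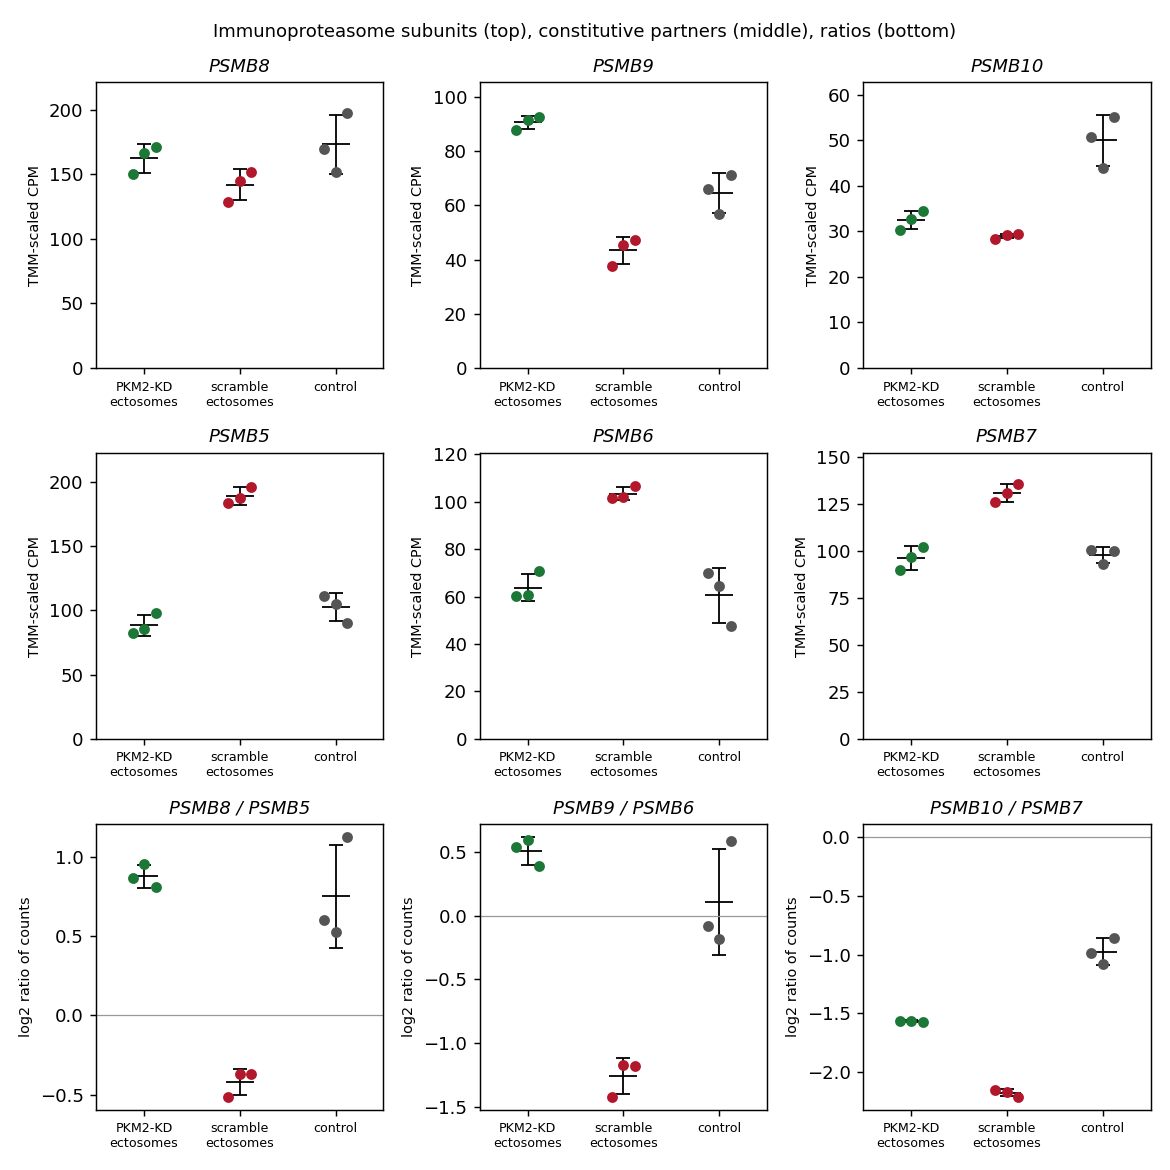
CPM of the 3 immunoproteasome catalytic subunits (top), CPM of the constitutive subunits they replace (middle) and log2 ratio of each pair (bottom), by group; points are libraries, lines mean and SD (n = 3). Scramble libraries are lowest in every ratio, for example at -1.42, -1.17 and -1.18 for PSMB9 to PSMB6.

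The chaperones that assemble the core particle, PSMG1 to PSMG4, are needed for the first steps of its assembly. With PKM2-KD ectosomes 3 of 4 were lower than in control and none was higher, with a median log2 fold change of -0.77. Over all genes 26.7% were lower and 27% higher in that comparison. PSMG1, which pairs with PSMG2 to build the alpha ring, had 19.8, 18.6 and 21.8 CPM with PKM2-KD ectosomes, 34.2, 34.3 and 39.9 CPM with scramble ectosomes and 40.2, 38.7 and 44.3 CPM in control cells. The PKM2-KD libraries lay far below the others, which overlapped. PSMG1 was 1.804-fold lower with PKM2-KD than with scramble ectosomes (log2 fold change -0.85 ± 0.10, adjusted p = 3.54e-05) and 2.05-fold lower than in control (log2 fold change -1.03 ± 0.10, adjusted p = 1.25e-05). PSMG4 had 13.01, 11.4 and 13.4 CPM with PKM2-KD ectosomes, 11.6, 11.5 and 12.3 CPM with scramble ectosomes and 23.5, 22.6 and 27.1 CPM in control cells. Both groups given ectosomes overlapped and lay below every control library, and PSMG4 fell 2.07-fold with scramble ectosomes (log2 fold change -1.05 ± 0.11, adjusted p = 9.89e-06) and 1.94-fold with PKM2-KD ectosomes (log2 fold change -0.95 ± 0.11, adjusted p = 4.08e-05) against control. PSMG2 fell likewise, with log2 fold changes of -0.48 for scramble and -0.59 for PKM2-KD ectosomes against control. PSMG3, the partner of PSMG4, had 38.2, 42.99 and 49.4 CPM with PKM2-KD ectosomes, 59.03, 66.4 and 70.1 CPM with scramble ectosomes and 58.9, 50.97 and 42.9 CPM in control cells. It was lower with PKM2-KD than with scramble ectosomes (log2 fold change -0.58 ± 0.13, adjusted p = 0.00257), and its rise with scramble ectosomes against control (log2 fold change 0.35 ± 0.13, adjusted p = 0.0302) was lost with library totals as the scaling, at an adjusted p of 0.334.

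The chaperones of the regulatory particle differed from each other. PSMD10, also known as the oncoprotein gankyrin, had 33.7, 30.9 and 32.4 CPM with PKM2-KD ectosomes, 27.9, 26.9 and 26.02 CPM with scramble ectosomes and 33.99, 32.2 and 41.01 CPM in control cells. Scramble libraries were the lowest. PSMD10 fell with scramble ectosomes against control (log2 fold change -0.41 ± 0.10, adjusted p = 0.00423) and was higher with PKM2-KD than with scramble ectosomes (log2 fold change 0.26 ± 0.10, adjusted p = 0.041), but that last call was lost with RLE scaling, with DESeq2, with the replicate number as a block and without any 1 of the 6 ectosome libraries, with an adjusted p of up to 0.128. PSMD9 had 4.37, 4.45 and 4.98 CPM with PKM2-KD ectosomes, 8.21, 7.11 and 8.24 CPM with scramble ectosomes and 6.39, 7.103 and 4.58 CPM in control cells, with control replicate 3 far below the other control libraries. It was lower with PKM2-KD than with scramble ectosomes (log2 fold change -0.77 ± 0.17, adjusted p = 0.0026), and with PKM2-KD ectosomes against control it passed only without control replicate 3 (log2 fold change -0.56, adjusted p = 0.00238). PSMD5 was higher with PKM2-KD ectosomes than in control (log2 fold change 0.27 ± 0.08, adjusted p = 0.0201), a call lost under 5 alternatives with an adjusted p of up to 0.0665, and its call for scramble ectosomes (log2 fold change 0.21 ± 0.08, adjusted p = 0.0451) was lost under most alternatives, with an adjusted p of up to 0.962.

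PSME3 makes the nuclear activator of the core, PSME4 the large activator linked to histone turnover, and PSMF1 an inhibitor. PSME3 had 108, 103 and 117 CPM with PKM2-KD ectosomes, 155, 153 and 151 CPM with scramble ectosomes and 123, 125 and 139 CPM in control cells. The groups did not overlap, with PKM2-KD libraries the lowest and scramble libraries the highest. PSME3 rose with scramble ectosomes against control (log2 fold change 0.24 ± 0.08, adjusted p = 0.0182), was lower with PKM2-KD than with scramble ectosomes (log2 fold change -0.48 ± 0.08, adjusted p = 0.000339) and lower with PKM2-KD ectosomes than in control (log2 fold change -0.24 ± 0.08, adjusted p = 0.0243). The adjusted p reached 0.653 for the first of these and 0.133 for the last over the alternatives. PSMF1 had 28.6, 32.1 and 32.5 CPM with PKM2-KD ectosomes, 39.7, 44.3 and 47.1 CPM with scramble ectosomes and 39.3, 38.7 and 38.9 CPM in control cells. Its PKM2-KD libraries lay below all others, and it was lower than with scramble ectosomes (log2 fold change -0.49 ± 0.09, adjusted p = 0.000644) and than in control (log2 fold change -0.33 ± 0.09, adjusted p = 0.00949). PSME4 had 84.4, 76.6 and 76.7 CPM with PKM2-KD ectosomes, 81.7, 85.5 and 81.5 CPM with scramble ectosomes and 69.6, 63.6 and 83.5 CPM in control cells, and passed in no comparison with all 9 libraries. Without control replicate 3 it was higher than control with scramble ectosomes (log2 fold change 0.31) and with PKM2-KD ectosomes (0.25).

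Genes that work with the proteasome were taken from a list of 27 partners, such as ubiquitin shuttles, assembly factors and regulators. Of these, 20 rose and 3 fell with scramble ectosomes against control, the median log2 fold change being 0.54. With PKM2-KD ectosomes 2 were higher and 18 lower than with scramble ectosomes, with a median of -0.45, and 9 were higher and 8 lower than in control, with a median of 0.08. Over all genes the shares were 34.6% higher and 33.2% lower, 31.4% and 30.3%, and 27% and 26.7%, so the counts for PKM2-KD ectosomes against control lie near the background. NFE2L1, which restores proteasome genes when the proteasome is short, had 321, 338 and 331 CPM with PKM2-KD ectosomes, 718, 715 and 678 CPM with scramble ectosomes and 288, 270.3 and 139 CPM in control cells. Scramble libraries lay at the top, and control replicate 3 lay far below the other control libraries. NFE2L1 was 3.03-fold higher with scramble ectosomes than in control (log2 fold change 1.60 ± 0.21, adjusted p = 5.95e-05) and was 2.13-fold lower with PKM2-KD than with scramble ectosomes (log2 fold change -1.09 ± 0.21, adjusted p = 0.00103). Its comparison of PKM2-KD ectosomes with control did not pass (log2 fold change 0.51 ± 0.21, adjusted p = 0.0622), and without control replicate 3 the log2 fold change was 0.24 with an adjusted p of 0.00182.

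AKIRIN2, which carries proteasomes into the nucleus, had 58.3, 66.9 and 63.1 CPM with PKM2-KD ectosomes, 133, 142 and 136 CPM with scramble ectosomes and 48.6, 44.7 and 41.5 CPM in control cells. The groups did not overlap. Its level was 3.05-fold higher with scramble ectosomes than in control (log2 fold change 1.61 ± 0.08, adjusted p = 5.39e-08) and was 2.19-fold lower with PKM2-KD than with scramble ectosomes (log2 fold change -1.13 ± 0.08, adjusted p = 1.25e-06). ECPAS, a proteasome adaptor, had 113, 113 and 109 CPM with PKM2-KD ectosomes, 233, 232 and 224 CPM with scramble ectosomes and 103, 98.4 and 102 CPM in control cells. Its log2 fold changes were 1.18 ± 0.07 for scramble ectosomes against control and -1.04 ± 0.07 for PKM2-KD against scramble ectosomes, with adjusted p of 8.21e-08 and 4.63e-07. ZFAND2A, a stress-induced proteasome-binding protein, had 24.7, 27.8 and 26.5 CPM with PKM2-KD ectosomes, 71.9, 73.9 and 67.7 CPM with scramble ectosomes and 43.4, 40.6 and 34.1 CPM in control cells. Its PKM2-KD libraries fell below control as well (log2 fold change -0.58 ± 0.10, adjusted p = 0.000587). NFE2L2, the oxidative stress factor related to NFE2L1, had 177, 175 and 173 CPM with PKM2-KD ectosomes, 285, 276 and 292 CPM with scramble ectosomes and 84.3, 84.98 and 65.4 CPM in control cells, and stayed 2.23-fold above control with PKM2-KD ectosomes (log2 fold change 1.16 ± 0.10, adjusted p = 5.32e-06).

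**Figure D4:**
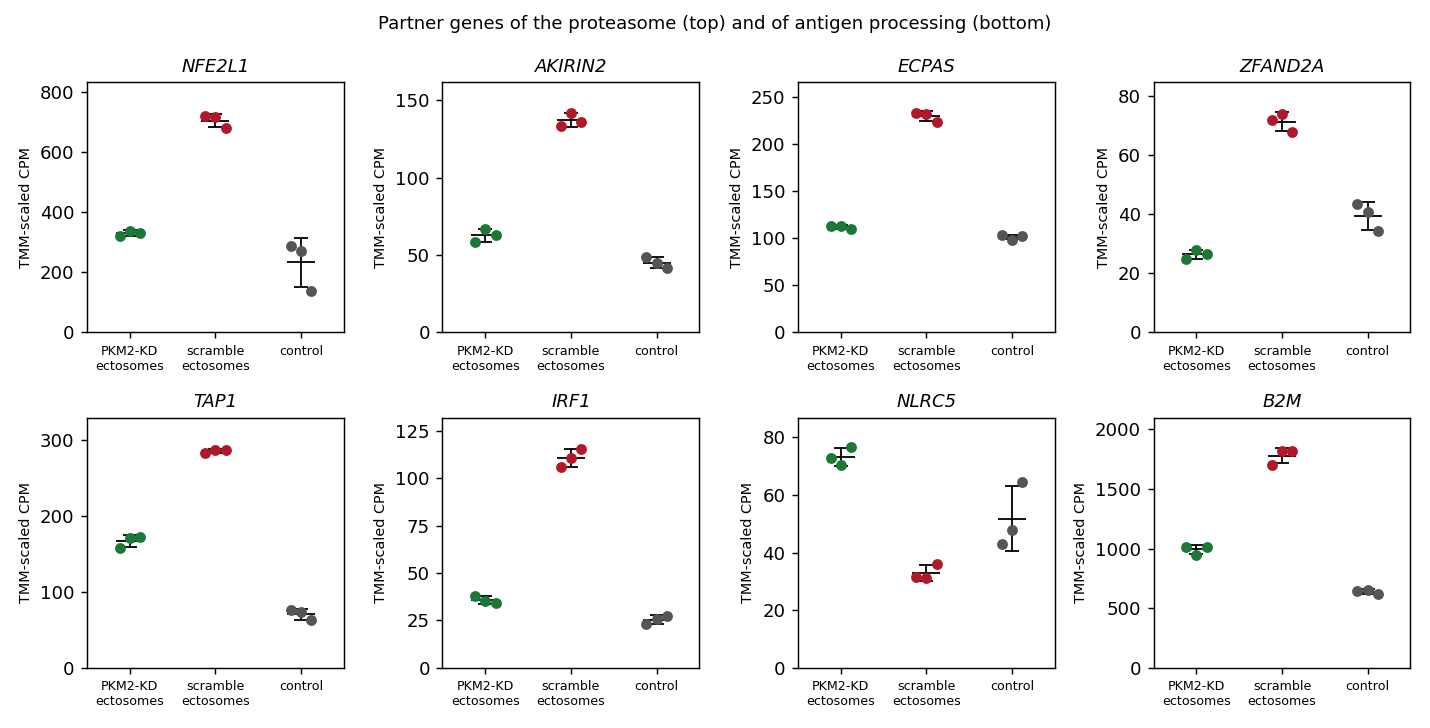
CPM by group of 4 partners of the proteasome (top) and 4 genes of interferon response and antigen processing (bottom); points are libraries, lines mean and SD (n = 3). NFE2L1, AKIRIN2, ECPAS, ZFAND2A, TAP1, IRF1 and B2M are highest with scramble ectosomes, TAP1 at 282, 286 and 287 CPM, whereas NLRC5 is lowest there, at 31.5, 31.1 and 35.9 CPM.

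Interferon usually induces the immunoproteasome together with other genes of antigen processing. Of 10 such partners tested, 8 rose and 1 fell with scramble ectosomes against control, the median log2 fold change being 0.89. With PKM2-KD ectosomes 3 were higher and 4 lower than with scramble ectosomes, with a median of -0.21, and 8 were higher and none lower than in control, with a median of 0.57. Over all genes 34.6% were higher and 33.2% lower with scramble ectosomes than in control. The shares were 31.4% and 30.3% for PKM2-KD against scramble ectosomes, where the counts of partners lie near the background. They were 27% and 26.7% for PKM2-KD ectosomes against control. TAP1, the peptide transporter subunit, had 158, 171 and 172 CPM with PKM2-KD ectosomes, 282, 286 and 287 CPM with scramble ectosomes and 75.6, 73.2 and 62.4 CPM in control cells. TAP1 lies at chr6:32845209-32853978 on the minus strand, inside the span annotated for PSMB9 on the plus strand. The RefSeq start of PSMB9 lies past the start of TAP1, and from there the genes run in opposite directions. The promoter of TAP1 held overlapping interferon response element matches, within chr6:32853813-32853841 and chr6:32853819-32853847, upstream of that PSMB9 start. Their part in the levels of either gene was not tested. TAP1 was 4.05-fold higher with scramble ectosomes than in control (log2 fold change 2.02 ± 0.09, adjusted p = 1.69e-08) where PSMB9 fell. It was 1.71-fold lower with PKM2-KD than with scramble ectosomes (log2 fold change -0.77 ± 0.09, adjusted p = 2.19e-05), where PSMB9 was higher. IRF1, an interferon-induced activator of such genes, had 37.9, 35.3 and 34.2 CPM with PKM2-KD ectosomes, 106, 111 and 115 CPM with scramble ectosomes and 23.1, 25.7 and 27.5 CPM in control cells, with a 4.34-fold rise in scramble over control (log2 fold change 2.12 ± 0.09, adjusted p = 1.11e-08).

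B2M, the light chain of MHC class I, had 1014, 950.2 and 1016 CPM with PKM2-KD ectosomes, 1705, 1819.8 and 1817 CPM with scramble ectosomes and 644, 654 and 618 CPM in control cells, with a 2.79-fold rise in scramble over control (log2 fold change 1.48 ± 0.07, adjusted p = 3.72e-08). NLRC5, a transactivator of MHC class I genes, had 72.7, 70.4 and 76.6 CPM with PKM2-KD ectosomes, 31.5, 31.1 and 35.9 CPM with scramble ectosomes and 43.1, 47.7 and 64.6 CPM in control cells. It was chosen here after its values were seen, as the 1 gene of the list that fell with scramble ectosomes (log2 fold change -0.66 ± 0.14, adjusted p = 0.00135), and it was higher with PKM2-KD than with scramble ectosomes (log2 fold change 1.16 ± 0.14, adjusted p = 3.34e-05). It was also higher with PKM2-KD ectosomes than in control (log2 fold change 0.50 ± 0.13, adjusted p = 0.00895).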

How the data were processed

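Raw read counts per gene symbol were deposited for 9 libraries, 3 per group, with no normalization. The submitters' processing notes name GRCh38/hg38, featureCounts 1.5.0-p3 and HISAT2 2.0.5. The annotation release and the strand setting of the counting are not stated there. Per the labels' protocols, libraries for Illumina sequencing were made with the NEBNext Ultra kit from Trizol-extracted RNA.

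The first row of each symbol was used. Counts were tested with edgeR 4.0.16 in R 4.3.3. After filterByExpr by group, 18437 of 30000 rows remained, with 99.85% or more of each library's counts. TMM scaling was used, and 1 quasi-likelihood fit took in the 9 libraries, leaving 6 residual degrees of freedom and a common biological variation (BCV) of 13.3%. Tests were two-sided. The threshold was 0.05 on p adjusted by Benjamini-Hochberg over the 18437 rows. Every adjusted p is from this fit, except those of the ratios and those given for an alternative setting or a left-out library. An SE was approximated as the size of a log2 fold change over the root of its F statistic. The edgeR fit was also run on simulated counts, with few genes changed and no library standing apart. That setting differs from these data, so the run does not check the calls made here. Ratios were compared by exact permutation (scipy 1.17.1). Gene positions, exonic lengths and overlaps come from GENCODE release 29 (GRCh38). Levels per kilobase use the exonic length of all transcripts of a gene together. Promoter sequences are from RefSeq.

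The members, gene lists and tests were chosen with earlier results of these data known. All members may be named. Values in every library are given for the immunoproteasome genes and, in each other class, for the members with the highest and lowest log2 fold change between scramble ectosomes and control and between PKM2-KD and scramble ectosomes, at a mean of at least 5 CPM. In each partner list the same holds for the 2 smallest p of each of those comparisons, beside PKM, NFE2L1, TAP1 and IRF1, and some results that this rule takes in are not reported here. PSMB6, PSMB7 and NLRC5 were added after their values were seen. The alternatives were RLE scaling, library totals, no filter on low counts, DESeq2 1.42.0, the replicate number as a block, only the groups compared in the fit, and leaving out each library in turn.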

Additional observations from a re-analysis of the deposited data

Results flagged for a closer look

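The 3 members here were picked because every comparison passed the edgeR quasi-likelihood test, with the 2 kinds of ectosomes on opposite sides of control. The passing tests are therefore the rule itself and add no support to it. PSMB9 was 1.06 higher on the log2 scale with PKM2-KD than with scramble ectosomes, being higher than control in 3 of 3 libraries with PKM2-KD ectosomes and lower in 3 of 3 with scramble ectosomes. PSMD14, with a log2 difference of -0.98, and PSME3, with -0.48, went the other way, lying below every control library with PKM2-KD ectosomes and above every one with scramble ectosomes. For PKM2-KD ectosomes against control the adjusted p was 0.00985 for PSMD14 and 0.0243 for PSME3, and both calls were lost when some single libraries were left out. The rise of PSME3 with scramble ectosomes was lost with library totals as the scaling (log2 fold change 0.04, adjusted p = 0.653).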

How the results depend on the processing

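No gene result changed sign while past the threshold under any alternative run. With library totals as the scaling, 15 members were higher with scramble ectosomes than in control (26 with TMM) and 10 were higher with PKM2-KD than with scramble ectosomes (3 with TMM). With only those 2 groups in the fit the last count was 7, and leaving out 1 library at a time took it from 1 to 6. Members higher with PKM2-KD ectosomes than in control ranged from 4 to 13 (9 with all libraries) and members lower from 6 to 13 (8 with all libraries) when 1 library was left out, the highest counts being without control replicate 3. The other counts of members, those lower with scramble ectosomes than in control and those lower with PKM2-KD than with scramble ectosomes, stayed within 1.5 times of their values under every alternative run. Of 138 gene results, 133 kept their side of the threshold with DESeq2. Same-numbered libraries did not deviate together from their group means, with correlations from -0.094 to 0.067, so the numbers were not taken to pair them. With a replicate block in the fit 133 gene results kept their side, 24 members were higher and 6 lower with scramble ectosomes than in control, and the calls lost were those of PSMC3, PSMD5 and PSMG3 for that comparison, PSMD10 between the ectosomes and PSMD1 for PKM2-KD ectosomes against control. PSMA2 and PSMD9, the tested members with the fewest reads, had the largest SE for scramble ectosomes against control, 0.15 and 0.17. As 3 libraries a group bound the exact permutation p at 0.10, the ratios could not pass a threshold.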

Other observations

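Some partners of the proteasome fell with scramble ectosomes against control, and those described here were chosen after their values were seen. PAAF1, which binds the ATPases and holds back assembly of the full proteasome, had 18.1, 16.6 and 18.4 CPM with PKM2-KD ectosomes, 12.8, 12.2 and 13.5 CPM with scramble ectosomes and 24.2, 21.9 and 21.4 CPM in control cells, with no overlap between groups (log2 fold change -0.81 ± 0.10, adjusted p = 2.84e-05 for scramble ectosomes against control). UCHL5, a deubiquitinase that docks on the regulatory particle, had 87.02, 89.8 and 93.2 CPM with PKM2-KD ectosomes, 90.7, 96.9 and 91.8 CPM with scramble ectosomes and 135, 131 and 154 CPM in control cells, and was lower than control with both kinds of ectosomes (-0.64 for PKM2-KD and -0.59 for scramble on the log2 scale). USP14, another deubiquitinase that docks there, went the other way with scramble ectosomes, at 60.6, 61.3 and 62.1 CPM with PKM2-KD ectosomes, 112, 111 and 113 CPM with scramble ectosomes and 66.9, 67.4 and 70.8 CPM in control cells (log2 fold change 0.71 ± 0.06, adjusted p = 2.87e-06 for scramble ectosomes against control).

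All members together took 0.4399, 0.442 and 0.479% of the counts in the PKM2-KD libraries, 0.481, 0.488 and 0.499% in the scramble libraries and 0.472, 0.464 and 0.456% in the control libraries. On this scale, which uses no TMM factor, the scramble libraries lay above all others, 1 PKM2-KD library lay just under them and above every control library, and the other PKM2-KD libraries lay below every control library.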
